A study of Canis lupus familiaris with 27 samples.

Results

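Canine mammary carcinomas that had already reached a lymph node were compared by the size of the primary tumor, 2 cm or less against 3 cm or more by the sample labels. The rule took 13 of the 27 simple mammary carcinomas of the series, 6 small and 7 larger ones, and left out all 14 carcinomas without lymph node metastases. Each tumor came from a different dog and was hybridized to 1 Affymetrix Canine Genome 2.0 array, an array that carries probe sets of short oligonucleotides for dog transcripts. The values are log2 signals, so a difference of 1 is a doubling of the signal, and all differences below are small minus larger tumors.

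The small metastatic group held a West Highland White Terrier of 16 years with a tumor of 0.5 cm, a French Bulldog of 15 years, a Golden Retriever of 11 years and a second West Highland White Terrier of 12 years with tumors of 1 cm, and a Dachshund of 13 years and a Mixed Breed dog of 9 years with tumors of 2 cm. The larger metastatic group held an American Pittbull of 9 years, a Bobtail and a Rottweiler of 10 years each, and a Pudel and a Spitz-Mix of 16 years each, all with tumors of 3 cm, a Beagle of 11 years with a tumor of 4 cm and a Bavarian Mountain Dog of 13 years with a tumor of 5 cm. All 13 tumors were labelled negative for the estrogen receptor alpha. HER-2, the receptor encoded by *ERBB2*, was labelled negative in the Golden Retriever of the small group and the Pudel of the larger group, and positive in the others. Tumor pieces were dissected by the authors to hold mostly carcinoma cells, but they remained tissue with stroma, vessels and immune cells. The 14 non-metastatic carcinomas, used below for comparison, had no lymph node metastases at surgery and were from dogs of 9 to 15 years. Their tumors measured 2 to 15 cm (1 of 2 cm, 6 of 3 cm, 2 of 4 cm and 5 above). The paper chose them for a size above the average of the node-positive tumors, so the size gap is partly one of selection. The tumor of 2 cm falls below that average. The paper reports that the oldest of these dogs later developed lung metastases. In its clustering the tumors of this dog and of the Cocker Spaniel-Mix joined the metastatic ones. By the sample labels 9 of the 14 tumors were of grade III and 5 of grade II, all negative for the estrogen receptor alpha and positive for HER-2. The paper's own table differs for 2 of them: it lists the Labrador's tumor as HER-2 negative and the Great Dane's as grade III. Of these dogs 4 were German Shepherd mixes, and the others were of 10 breeds or mixes with 1 dog each. No sample name of this group ends in T. Apart from the 2 West Highland White Terriers, both in the small group, no breed occurred more than once among the 13 dogs. Breed therefore cannot be told apart from the single dog.

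Size at removal and spread to the lymph node are both used to stage mammary cancer in dogs as in women. The labels do not tell when a tumor seeded its node, and a larger one may have done so while small. Growth of a carcinoma depends on the mitotic spindle and DNA replication machinery, on survival proteins of the BCL2 family, on oxygen and on vessels. Where oxygen is short, the transcription factor HIF1 switches on genes of glucose uptake, glycolysis, vessel growth and collagen modification. Prostaglandin E2, made from membrane lipids by phospholipases and cyclooxygenases, is a mediator of inflammation that carcinomas also produce.

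No labelled property other than size passed a test between the groups. Grade III was given to 3 of 6 small and 4 of 7 larger tumors (two-sided Fisher's exact test, p = 1). The dogs with small tumors were 12.7 ± 2.58 years old and those with larger tumors 12.1 ± 2.91 years (SD; two-sided exact permutation test, p = 0.759). Survival after surgery was labelled for 4 dogs of the small group, at 3.25 ± 1.26 months, and for all 7 of the larger group, at 5.71 ± 3.09 months, and the difference did not pass an exact permutation test (two-sided, p = 0.179). All 6 small tumors and 5 of 7 larger ones had sample names that end in T, and the node was axillary in 1 small tumor and inguinal in all others.

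No array measure passed a test between the groups either. The array upper quartile lay between 7.88 and 8.00 in small tumors and between 7.88 and 7.97 in larger tumors. The 3′ to 5′ difference of the actin control, which grows as RNA degrades, averaged 4.38 ± 0.40 in small tumors and 3.90 ± 0.44 in larger tumors (SD, n = 6 and 7; two-sided exact permutation test, p = 0.0635), and that of the GAPDH control 1.97 ± 0.20 and 1.73 ± 0.37 (p = 0.167 in the same exact test). Their part in the differences below was not tested beyond a fit with the GAPDH difference as a covariate. The array of the American Pittbull was unusually like that of a non-metastatic Cocker Spaniel-Mix: over 9948 bright probe sets the SD of their difference was 0.457, the second smallest of 351 pairs, against a median of 1.11. The cause was not tested. Without the Pittbull's array 0 genes were called between small and larger tumors, as with it, and the smallest adjusted p in limma was 0.261.

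EPCAM, the adhesion molecule of epithelial cells, was between 13.4 and 14.3 in small tumors and between 12.5 and 14.3 in larger tumors. Keratin 8 (*KRT8*) was at 10.2 or more in all 13. Other epithelial genes varied more. Keratin 18 (*KRT18*) spanned 6.50 to 13.6 in small and 9.95 to 14.3 in larger tumors. E-cadherin (*CDH1*) spanned 4.71 to 8.80 and 5.96 to 8.77. *ESR1*, the gene of the estrogen receptor alpha, stayed between 2.19 and 2.36 in small tumors and reached 3.40 in 1 larger tumor, the Beagle's. *ERBB2* ranged from 4.60 to 8.01 in small tumors and from 4.51 to 7.95 in larger ones, with a difference of 0.39 (95% interval -1.00 to 1.78).

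No gene passed the test between small and larger metastatic tumors. Of 15115 genes, each measured by the probe set with the highest mean signal, 0 (0%) reached an adjusted p of 0.05 in limma (moderated linear model, Benjamini-Hochberg over all genes), and the smallest adjusted p was 1.00. The same was true of the 42860 probe sets that are not controls (0, or 0%), of which 1304 had an unadjusted p under 0.05. At an unadjusted p under 0.05 there were 482 genes (3.19%), fewer than the 5% that an even spread of p-values would give, with 285 (1.89%) higher and 197 (1.30%) lower in small tumors. With each array centred on its median the split was 210 higher and 244 lower. At an unadjusted p under 0.01 there were 38 genes higher (0.251%) and 37 lower (0.245%). The linear model without moderation called 0 genes as well, with 408 at an unadjusted p under 0.05, and so did limma with a trend, with 439. All values given below for single genes are therefore differences that did not pass the adjusted test, with adjusted p = 1.00 in limma for each gene of this comparison.

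**Figure D1:**
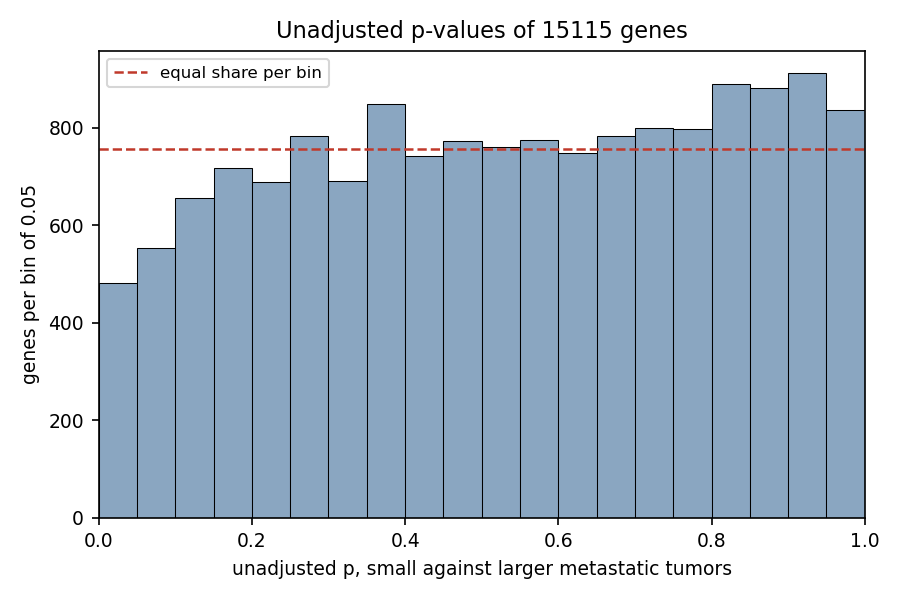
Number of genes (vertical axis) in each bin of 0.05 of the unadjusted p (horizontal axis) for small against larger metastatic tumors. The bin below 0.05 holds 482 of 15115 genes and lies under the dashed line of an equal share, and the bins fill towards 1.

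The precision of the comparison sets what it could show. For the 7557 genes above the median level of 5.19, the median width of the 95% interval was ± 0.69 on the log2 scale, and the 90th percentile of that width was ± 1.52. The median difference over all 15115 genes was 0.01, with 8102 genes higher and 7013 lower in small tumors. The numbers of list members higher or lower given below are to be read beside that split, and several lists lie near it.

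In the division at 2 cm *PTGS2* had the largest difference of the genes named here. It encodes cyclooxygenase 2, the inducible enzyme of prostaglandin synthesis and the target of the anti-inflammatory drugs used in dogs. Its signal was 3.22 in the tumor of 0.5 cm, 5.35, 2.76 and 5.18 in the tumors of 1 cm (French Bulldog, Golden Retriever and West Highland White Terrier), and 4.09 and 5.97 in those of 2 cm (Dachshund and Mixed Breed). In the larger tumors it was 8.45, 8.39, 8.04, 6.73 and 5.03 at 3 cm (American Pittbull, Bobtail, Pudel, Rottweiler and Spitz-Mix), 10.30 at 4 cm and 9.28 at 5 cm. All larger tumors except that of the Spitz-Mix lay above all small ones. The means were 4.43 ± 1.28 in small and 8.03 ± 1.72 in larger tumors (SD, n = 6 and 7), a log2 difference of -3.60 (95% interval -5.39 to -1.81). Leaving out single tumors gave differences between -4.10 and -3.22. In the 14 non-metastatic tumors *PTGS2* spanned 2.87 to 9.94 around a median of 4.91, so that both size groups lay within that range apart from the lowest small and the highest larger tumor.

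*PLA2G12A* and *NFKBIZ* were also among the 12 genes of smallest p on the lower side. *PLA2G12A*, a secreted phospholipase A2, averaged 7.58 ± 0.73 in small tumors and 8.52 ± 0.17 in larger tumors, a difference of -0.94 (-1.53 to -0.34). *NFKBIZ*, an inhibitor-like protein that steers NF-kappa-B to inflammatory genes, averaged 4.65 ± 0.83 in small tumors and 6.61 ± 1.24 in larger ones, a difference of -1.97 (-3.22 to -0.72). In small tumors *NFKBIZ* reached at most 5.89, whereas the Beagle's tumor of 4 cm had 8.79. *IL33*, an alarmin cytokine of epithelial and stromal cells, had a difference of -1.34 (-2.71 to 0.02).

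**Figure D2:**
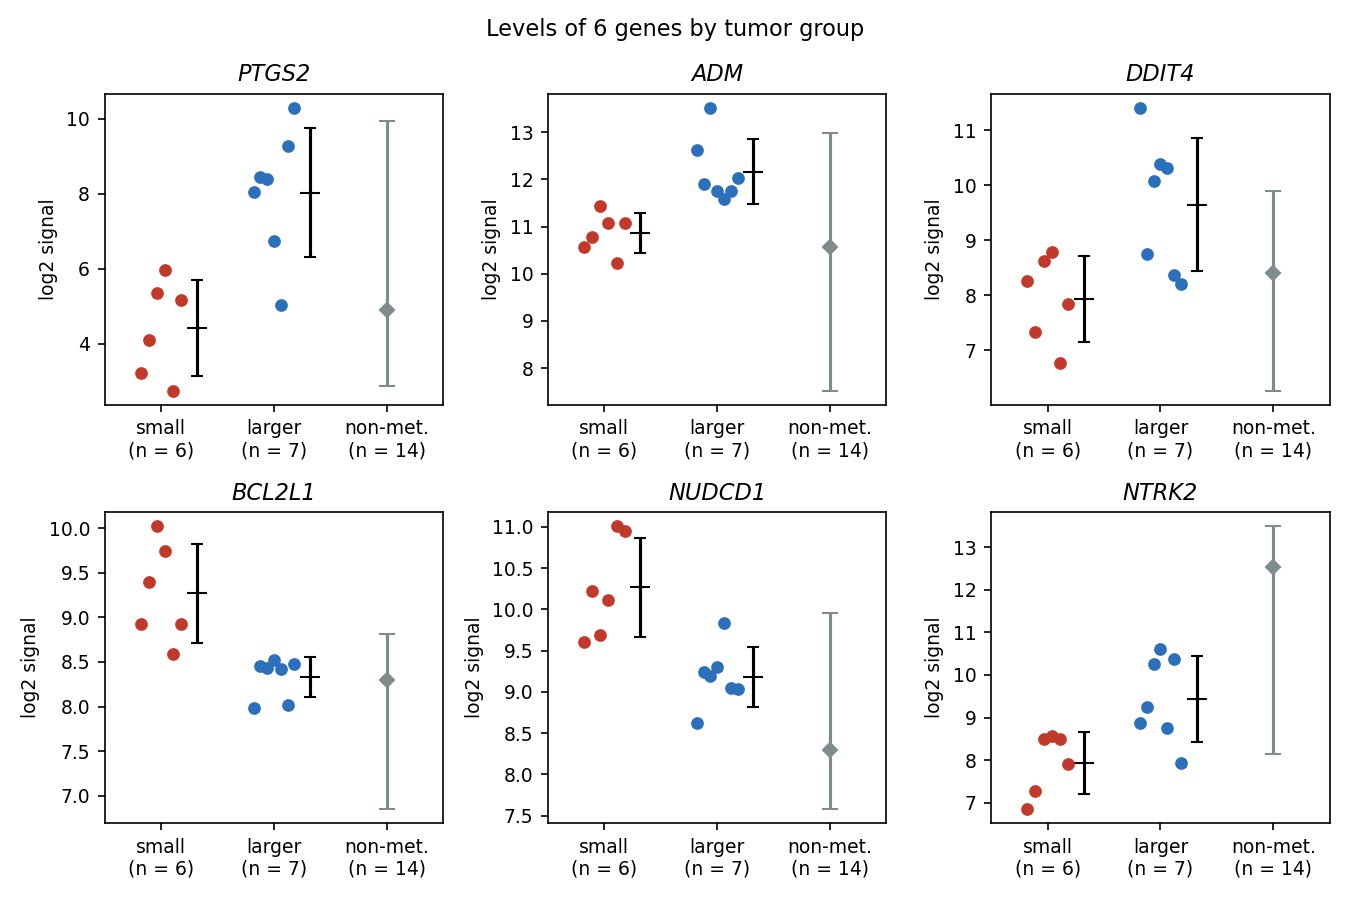
Log2 signals (vertical axes) of 6 genes in small and larger metastatic tumors, 1 point per tumor with the mean and SD beside them, and the median with the lowest and highest value of the 14 non-metastatic tumors. The groups do not overlap for ADM and BCL2L1, and 1 larger tumor falls within the small ones for PTGS2.

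Genes of the hypoxia list were mostly lower in small tumors. Of 25 measured members 20 had a negative difference and 5 a positive one, with a median of -0.42 against 0.01 over all genes, and 5 members had an unadjusted p under 0.05, all lower, against 1.30% of all genes. *ADM*, the vasodilator peptide adrenomedullin, ranged from 10.24 through a median of 10.93 to 11.43 in small tumors and from 11.58 through 11.89 to 13.52 in larger tumors. These ranges did not overlap, and the difference was -1.30 (-1.98 to -0.62). *DDIT4*, a stress-induced inhibitor of the mTORC1 growth pathway, averaged 7.93 ± 0.78 in small and 9.64 ± 1.21 in larger tumors, a difference of -1.71 (-2.92 to -0.50). The 4 larger tumors with the highest *DDIT4*, at 10.08 to 11.41, were all of 3 cm, while the tumors of 4 and 5 cm were at 8.20 and 8.37.

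Other members of the hypoxia list had smaller differences. *P4HA1*, a subunit of the prolyl hydroxylase that stabilizes collagen, averaged 11.28 ± 0.47 in small tumors and 12.14 ± 0.57 in larger ones, a difference of -0.87 (-1.49 to -0.25). *HIF1A*, the oxygen-regulated subunit of HIF1 itself, which is controlled mainly at the protein level, averaged 12.67 ± 0.44 and 13.50 ± 0.62 in small and larger tumors, a difference of -0.84 (-1.48 to -0.19). The glucose transporter *SLC2A3* had a difference of -1.29 (-2.28 to -0.30), and *VEGFA*, the main growth factor of vessels, -0.85 (-1.70 to 0.01). *ANGPTL4* and *CA12* were the members of smallest p in the other direction, at 0.53 (-0.82 to 1.89) and 0.23 (-0.63 to 1.08). Of 17 glycolysis genes 13 were on the lower side, with a median of -0.15, and *ALDOA*, aldolase A, had the smallest p among them at -0.67 (-1.18 to -0.16). The mean level over the hypoxia list was between 7.24 and 8.67 in small tumors and between 8.08 and 9.02 in larger ones. The small tumor above the lowest larger ones was the French Bulldog's. Without the Golden Retriever's tumor, the lowest of all, the median difference of the list was -0.27.

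*BCL2L1* was among the genes of smallest p on the higher side. It encodes BCL-xL, which keeps mitochondria from starting apoptosis. Its signal was between 8.58 and 10.02 in small tumors, with a median of 9.16, and between 7.99 and 8.52 in larger tumors, with a median of 8.43, and all small tumors lay above all larger ones. The difference was 0.94 (0.46 to 1.42), and 0.79 to 1.08 with single tumors left out. The second probe set of the gene was far dimmer and had a difference of 1.03. The apoptosis and p53 list, which holds *BCL2L1*, was spread on both sides, with 9 of 21 members higher and 12 lower and a median of -0.01. *CDKN1A*, the p53 target that halts the cell cycle, averaged 10.07 ± 1.38 in small and 11.34 ± 1.18 in larger tumors, a difference of -1.26 (-2.75 to 0.22), and *BAX*, an opponent of BCL-xL, had -0.89 (-2.15 to 0.36).

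The other genes of smallest p on the higher side had differences below 1.3. *NUDCD1*, described in humans as a tumor antigen, was between 9.61 and 11.01 in small tumors and between 8.62 and 9.84 in larger ones, with a difference of 1.08 (0.51 to 1.65), and the 3 further probe sets of the gene gave 0.82, 0.92 and 0.98. *SLC25A32*, the folate carrier of mitochondria, averaged 8.50 ± 0.40 in small tumors and 7.59 ± 0.43 in larger ones, a difference of 0.91 (0.42 to 1.39). *COMMD6*, a member of a family that restrains NF-kappa-B and sorts membrane proteins, had 0.74 (0.34 to 1.13), the phosphatase *PPM1M* 0.63 (0.29 to 0.97) and the kinase *MAP2K5*, which acts on ERK5, 0.67 (0.29 to 1.06). *FBXL14* and *KBTBD7*, both parts of ubiquitin ligases, had 0.80 (0.46 to 1.15) and 0.72 (0.38 to 1.06). *ZBTB2*, a zinc finger regulator of transcription, had 0.66 (0.28 to 1.03).

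Some of these genes were dim or rested on 1 of several probe sets. *FBXL14*, *LTO1* and *IQCC*, with mean levels of 4.64, 3.80 and 3.17 over the 27 tumors, were below the median gene. *LTO1*, needed for ribosome recycling, had a difference of 1.26 (0.59 to 1.93), and *IQCC* one of 0.43 (0.18 to 0.67). *KHDRBS1*, the RNA-binding protein Sam68, had a difference of 0.51 (0.21 to 0.80) by its brightest probe set, but -0.30 and -0.49 by 2 others, and 0.07 by the mean of all its probe sets. Over the 24 genes of smallest p, 12 in each direction, 15 had further probe sets, and 30 of these 36 probe sets had the sign of the main one (15 of the 16 above the median level).

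On the lower side the remaining genes of smallest p included several with differences beyond 1. *ARID5B*, a DNA-binding regulator of fat and mesenchymal genes, averaged 6.45 ± 0.67 in small and 7.82 ± 0.59 in larger tumors, a difference of -1.37 (-2.11 to -0.64). *PPP3R1*, the regulatory subunit of the phosphatase calcineurin, had -1.42 (-2.26 to -0.58), *ATRX*, a chromatin remodeler, -1.07 (-1.73 to -0.41), and *SULF2*, which trims heparan sulfate outside cells, -1.29 (-2.13 to -0.46). *KIAA1109* had -1.42 (-2.32 to -0.51). For *ATRX* the 4 further probe sets above 4 on the log2 scale gave differences between -1.45 and -0.57. By the mean of all probe sets the differences were -0.68 for *ARID5B*, -0.58 for *PPP3R1* and -0.38 for *SULF2*. *HEATR5A*, *YTHDC2*, an RNA helicase, and the mitochondrial carrier *SLC25A16* had smaller differences of -0.73 (-1.10 to -0.37), -0.82 (-1.25 to -0.38) and -0.66 (-1.02 to -0.30), and for *HEATR5A* the highest small tumor, at 6.76, lay under the lowest larger one, at 6.83.

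Complete separation of the groups was rare. It was found in 4 genes higher in small tumors (0.0265% of all genes), *BCL2L1*, *FBXL14*, *GOPC* and *SLAIN1*, and in 4 lower ones (0.0265%), *ADM*, *HEATR5A*, *CRIM1* and *ALDH8A1*. *GOPC*, *SLAIN1*, *CRIM1* and *ALDH8A1* are named because of this count, after their values were seen. *GOPC* averaged 6.03 ± 0.24 in small and 5.58 ± 0.20 in larger tumors. *SLAIN1* and *CRIM1* had differences of 0.92 (0.27 to 1.58) and -0.67 (-1.28 to -0.06). *ALDH8A1* was near the bottom of the scale, between 2.07 and 2.13 in small tumors and from 2.13 in larger ones, of which 1 reached 5.49.

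The genes of cell division had the highest median difference of the 49 lists. Of 40 members of the mitosis and spindle list 39 were higher in small tumors, with a median difference of 0.89 against 0.01 over all genes, while 2 members had an unadjusted p under 0.05, against 1.89% of all genes. These were *INCENP* and *AURKB*, partners in the complex that corrects chromosome attachment. *AURKB* averaged 9.91 ± 0.71 in small tumors and 9.03 ± 0.69 in larger ones, a difference of 0.88 (0.06 to 1.69), and *INCENP* had 0.79 (0.06 to 1.51). *AURKA*, the centrosome kinase, averaged 9.14 ± 1.19 in small and 7.86 ± 1.09 in larger tumors, a difference of 1.28 (-0.05 to 2.61). The exception to the direction was *UBE2C*, whose probe set stayed between 2.43 and 2.66 in all 13 tumors. By the mean of all its probe sets *UBE2C* had a difference of 0.04.

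Members of such a list vary together from tumor to tumor, so their shared sign describes a few tumors more than 40 separate genes. The mean level over the mitosis list was 8.91 at 0.5 cm, 7.21, 9.28 and 8.92 at 1 cm (French Bulldog, Golden Retriever and West Highland White Terrier), and 8.31 and 6.88 at 2 cm (Dachshund and Mixed Breed). In the larger tumors it was 8.14, 8.60, 7.22, 8.11 and 7.50 at 3 cm (American Pittbull, Bobtail, Pudel, Rottweiler and Spitz-Mix), 6.15 at 4 cm and 5.74 at 5 cm. The 3 highest tumors were small ones and the 2 lowest were the largest of all, while the tumors in between overlapped. Without the Bavarian Mountain Dog's tumor of 5 cm the median difference of the list was 0.64, the lowest value with any single tumor left out. In the 14 non-metastatic tumors the mean level of the list was 4.08 to 7.57.

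DNA replication genes had the same direction with a smaller median. In small tumors 36 of 39 members were higher, with a median difference of 0.44. An unadjusted p under 0.05 was found for 2 members, both higher, against 1.89% of all genes. *RRM2*, which supplies deoxynucleotides, averaged 11.00 ± 0.69 in small and 9.80 ± 0.94 in larger tumors, a difference of 1.19 (0.22 to 2.17). *DSCC1*, which helps load the replication clamp, averaged 8.20 ± 0.75 and 6.83 ± 0.93 in small and larger tumors, a difference of 1.37 (0.37 to 2.36). *CDC6* and *CDT1*, which license replication origins, had 1.19 (-0.17 to 2.54) and 0.68 (-0.11 to 1.47). DNA repair genes showed no common direction, with 15 of 32 higher and a median of -0.01.

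**Figure D3:**
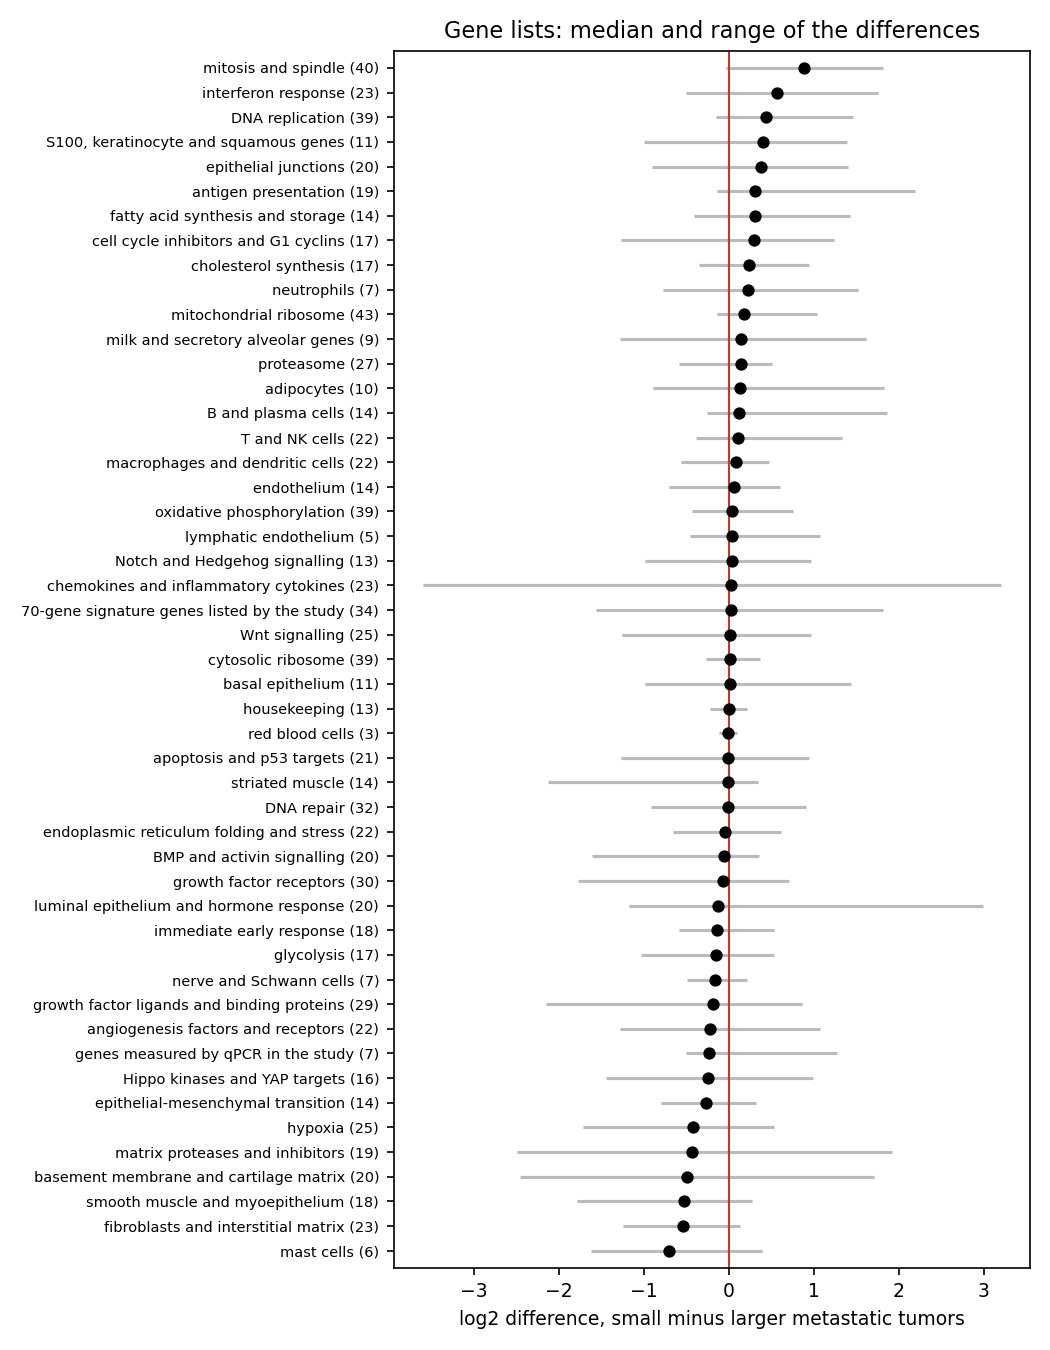
Median (point) and range (line) of the log2 differences, small minus larger metastatic tumors, for the members of 49 gene lists, with the number of measured members in parentheses and the median over all genes as a vertical line. The medians lie between -0.71 for mast cells and 0.89 for mitosis, and the ranges of all 49 lists cross 0.

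Genes of protein synthesis and breakdown had small differences. For the mitochondrial ribosome 35 of 43 members were higher in small tumors, with a median of 0.18, or 0.09 without the Golden Retriever's tumor, and *MRPS35* and *MRPL13* had 0.82 (0.08 to 1.55) and 0.88 (0.03 to 1.72). For the proteasome 25 of 27 members were higher, with a median of 0.14, or 0.09 without the same tumor. *PSMA1* and *PSMB3*, subunits of the core, had 0.51 (0.09 to 0.93) and 0.43 (0.07 to 0.79), while *PSMD12* of the lid had -0.58 (-1.15 to -0.01). The cytosolic ribosome had a median of 0.02 over 39 genes and the housekeeping genes one of 0.00 over 13. Oxidative phosphorylation was at 0.04 over 39 genes, and genes of fatty acid synthesis and storage were higher in 13 of 14, with a median of 0.30, or 0.15 without the Bavarian Mountain Dog's and 0.18 without the Mixed Breed's tumor.

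Genes of stroma and contractile cells were mostly lower in small tumors, none of them past the test. In bulk tissue fewer cells of a type and less RNA per cell cannot be told apart. Of 23 genes of fibroblasts and interstitial matrix 19 were lower, with a median of -0.54 and 0 at an unadjusted p under 0.05. *SPARC* had -0.60 (-1.50 to 0.30), *COL5A2*, a chain of type V collagen, -1.06 (-2.77 to 0.66), and *VCAN*, a matrix proteoglycan, -1.24 (-3.42 to 0.94). The mean level over this list was 8.71 to 12.25 in small tumors and 10.16 to 13.30 in larger ones. Without the West Highland White Terrier's tumor of 1 cm, the lowest, the median difference of the list was -0.13, and without the Pudel's -0.26. Smooth muscle and myoepithelial genes were lower in 13 of 18, with a median of -0.52, or -0.17 without the same terrier's tumor and -0.33 without the Pudel's. The smooth muscle actin *ACTG2* averaged 9.30 ± 0.64 in small and 10.30 ± 0.91 in larger tumors, a difference of -1.00 (-1.93 to -0.07), and the myosin kinase *MYLK* 9.50 ± 1.38 and 11.14 ± 1.33, a difference of -1.64 (-3.22 to -0.06).

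Matrix proteases and cartilage genes varied more between tumors than between the groups. *MMP13*, collagenase 3, ranged from 5.91 through a median of 7.60 to 12.51 in small tumors and from 8.16 through 11.24 to 13.26 in larger ones. The difference was -2.49 (-4.94 to -0.04), and the Dachshund's small tumor of 2 cm lay among the highest of all. *CTSB*, the lysosomal protease cathepsin B, had -0.43 (-0.86 to -0.01), and 15 of 19 genes of the protease list were lower, with a median of -0.43. *ACAN*, the cartilage proteoglycan aggrecan, had -2.46 (-5.38 to 0.46), and 16 of 20 genes of basement membrane and cartilage were lower, with a median of -0.49. That median was -0.10 without the Pudel's, -0.21 without the Bobtail's and -0.25 without the 1 cm terrier's tumor, and -0.15 among the 11 tumors whose names end in T.

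Among growth factor receptors, 17 of 30 were lower in small tumors and 13 higher, with a median of -0.07. *NTRK2*, the receptor of the neurotrophin BDNF, ranged from 6.85 through 8.19 to 8.57 in small tumors and from 7.93 through 9.25 to 10.61 in larger ones, a difference of -1.51 (-2.55 to -0.47). By the mean of all its probe sets the difference was -0.57. *DDR2*, a receptor for collagen, had -1.78 (-3.27 to -0.28) and *MET*, the receptor of hepatocyte growth factor, -1.46 (-2.88 to -0.05). Their medians in the non-metastatic tumors were 7.61 for *DDR2* and 7.75 for *MET*. Of 29 growth factor ligands and binding proteins 22 were lower, with a median of -0.19, or -0.08 without the Pudel's, -0.12 without the Bobtail's and -0.10 without the 1 cm terrier's tumor. *CCN2*, connective tissue growth factor, averaged 12.70 ± 0.67 in small and 13.65 ± 0.65 in larger tumors, a difference of -0.96 (-1.73 to -0.18), and *FGF7*, a growth factor from stroma for epithelium, had -2.15 (-4.43 to 0.13). The receptor *BMPR1A* had -1.09 (-1.98 to -0.20) in a list of 20 BMP and activin genes with a median of -0.06.

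Of 14 genes of B and plasma cells 11 were higher in small tumors, with a median of 0.12 (0.01 without the French Bulldog's and 0.07 without the American Pittbull's tumor). The differences of the members ran from -0.26 to 1.86. An unadjusted p under 0.05 was found for 2 members, both higher, against 1.89% of all genes. These were *MS4A1* (CD20) and *CD79B*, with differences of 1.33 (0.17 to 2.49) and 1.86 (0.16 to 3.57). *CD79B* was at 5.47, 7.06 and 5.48 in the tumors of the terrier of 0.5 cm, the French Bulldog and the terrier of 1 cm, between 2.09 and 2.29 in the other 3 small tumors, and between 2.12 and 2.49 in all larger ones. *CXCL13*, the chemokine that draws B cells into follicles, was high in the same 3 tumors, at 8.13, 10.74 and 9.13, but also at 6.86 in the Golden Retriever's and 8.13 in the Mixed Breed's small tumor. In larger tumors it was 8.67 in the Rottweiler's, 6.52 in the Bobtail's, 5.41 in the Beagle's and between 2.48 and 2.55 in the other 4. Its difference was 3.20 (0.11 to 6.29). The antigen presentation list was higher in 18 of 19 genes, with a median of 0.31, or 0.07 without the terrier's tumor of 1 cm and 0.06 among tumors whose names end in T, and *DLA-DOA*, a dog MHC class II gene of B cells, had 2.19 (0.24 to 4.14).

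Interferon response genes were higher in 18 of 23, with a median of 0.57. *IFIT2* averaged 4.91 ± 1.44 in small and 3.48 ± 0.53 in larger tumors, a difference of 1.43 (0.21 to 2.65), and *RSAD2* had 1.76 (-0.65 to 4.16). The mean level of the list ranged from 6.46 to 10.05 in small and from 6.60 to 9.13 in larger tumors, and the median difference was 0.25 without the terrier's tumor of 1 cm, the highest, 0.27 without the Pudel's and 0.32 without the Beagle's. Among the 11 tumors whose names end in T it was 0.08, and those of the fibroblast and smooth muscle lists were -0.28 and -0.29. T and NK cell genes had a median of 0.11 (15 of 22 higher) and macrophage and dendritic cell genes one of 0.09 (12 of 22), and these medians were -0.02 without the 1 cm terrier's and -0.19 without the French Bulldog's tumor. Mast cell genes were lower in 5 of 6, with a median of -0.71, or -0.46 without the Pudel's tumor, and 0 at an unadjusted p under 0.05. *CPA3*, a mast cell protease, had -1.62 (-3.94 to 0.71).

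Epithelial genes had differences in both directions. Luminal and hormone response genes were lower in 14 of 20 with a median of -0.13, which was 0.03 without the Beagle's and 0.01 without the Golden Retriever's tumor. Basal genes had a median of 0.01. Epithelial junction genes were higher in 12 of 20 with a median of 0.37. That median was 0.03 without the Bobtail's, 0.19 without the Rottweiler's, 0.09 without the 0.5 cm terrier's and 0.12 without the Dachshund's tumor. *ELF5*, the regulator of alveolar cells, ranged from 2.81 to 13.92 in small and from 2.31 to 10.26 in larger tumors, a difference of 3.00 with an interval from -0.98 to 6.97. *PGR*, the progesterone receptor, had -0.12 (-2.59 to 2.34), or 0.65 without the Golden Retriever's tumor. Genes of epithelial-mesenchymal transition were lower in 11 of 14, with a median of -0.26. It was between -0.16 and -0.03 without the Pudel's, the Bobtail's, the Bavarian Mountain Dog's, the Golden Retriever's or the 1 cm terrier's tumor, nearest to 0 without the Pudel's. In this list *VIM*, vimentin, had -0.42 (-1.31 to 0.47). Genes of S100 proteins and squamous epithelium were higher in 9 of 11, with a median of 0.40, but -0.01 without the French Bulldog's and 0.24 without the 0.5 cm terrier's tumor. Cell cycle inhibitors with G1 cyclins were higher in 13 of 17, with a median of 0.29, or 0.17 without the Beagle's tumor. Endothelial, Wnt, and Notch and Hedgehog genes had medians of 0.06, 0.02 and 0.03, and the endothelial one was -0.19 without the Dachshund's tumor.

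The quantitative PCR genes of the study belonged to its metastatic signature from these tumors. The paper gives earlier reports on canine mammary tumors as the reason for choosing them. Because they were picked with these tumors, their directions are not treated as independent evidence. None of them passed between the sizes. Of the 7 quantitative PCR genes with a value, *AURKA* is given above, *TGFBR3*, a coreceptor of TGF-beta, had 0.55 (-1.52 to 2.61), *BMP6* -0.41 (-2.27 to 1.46), *IGF2R* -0.50 (-1.35 to 0.35), *ERBB4* -0.24 (-0.66 to 0.19), *ALOX12*, a lipoxygenase, -0.29 (-1.01 to 0.43) and *HEPACAM2* -0.22 (-2.14 to 1.69). *TGFBR3* was at 0.02 without the Mixed Breed's tumor and at -0.44 for tumors of 1 cm or less, and *BMP6* and *HEPACAM2* also changed sign under some alternatives. Of 34 genes of the human 70-gene breast cancer signature 19 were higher and 15 lower in small tumors, with a median of 0.02, and *DCK*, a salvage kinase for deoxynucleosides, had 1.55 (0.11 to 2.99).

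A stricter division of size gave 2 called genes. When the tumors of 1 cm or less were set against those of 3 cm or more (4 and 7 tumors, the 2 cm tumors left out), *GUF1* and *SERPINB11* passed the test on the higher side (0.0132% of genes) and 0 genes on the lower side. *SERPINB11*, an epithelial member of the serpin family of protease inhibitors, had a signal of 7.35 at 0.5 cm and of 6.55, 8.66 and 5.25 at 1 cm (French Bulldog, Golden Retriever and West Highland White Terrier). In the 7 larger tumors it was between 2.32 and 2.54 and in the 2 cm tumors 2.37 and 2.38. The log2 difference was 4.57 (95% interval 3.46 to 5.68; limma, adjusted p = 0.0274). The values of the larger tumors lie below the median probe set of every array, and no detection calls were used, so this difference can be read only as a lower bound. One non-metastatic tumor reached 5.20, around a median of 2.40.

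*GUF1*, a translation factor of mitochondria, was between 3.57 and 3.91 in the 4 tumors of 1 cm or less, between 2.48 and 2.63 in the larger ones, and between 2.42 and 2.63 in all 14 non-metastatic tumors. The difference was 1.22 (1.07 to 1.38; limma, adjusted p = 0.000126). Both 2 cm tumors were near the larger ones, at 2.41 and 2.48, and in the division at 2 cm neither gene passed. Each gene has 1 probe set with a symbol of its own. The *GUF1* signals lie below the median gene in every tumor. Even the high ones were close to the array medians of the small tumors, 3.58 to 3.75. Without detection calls, the size of the *GUF1* difference is therefore uncertain.

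**Figure D4:**
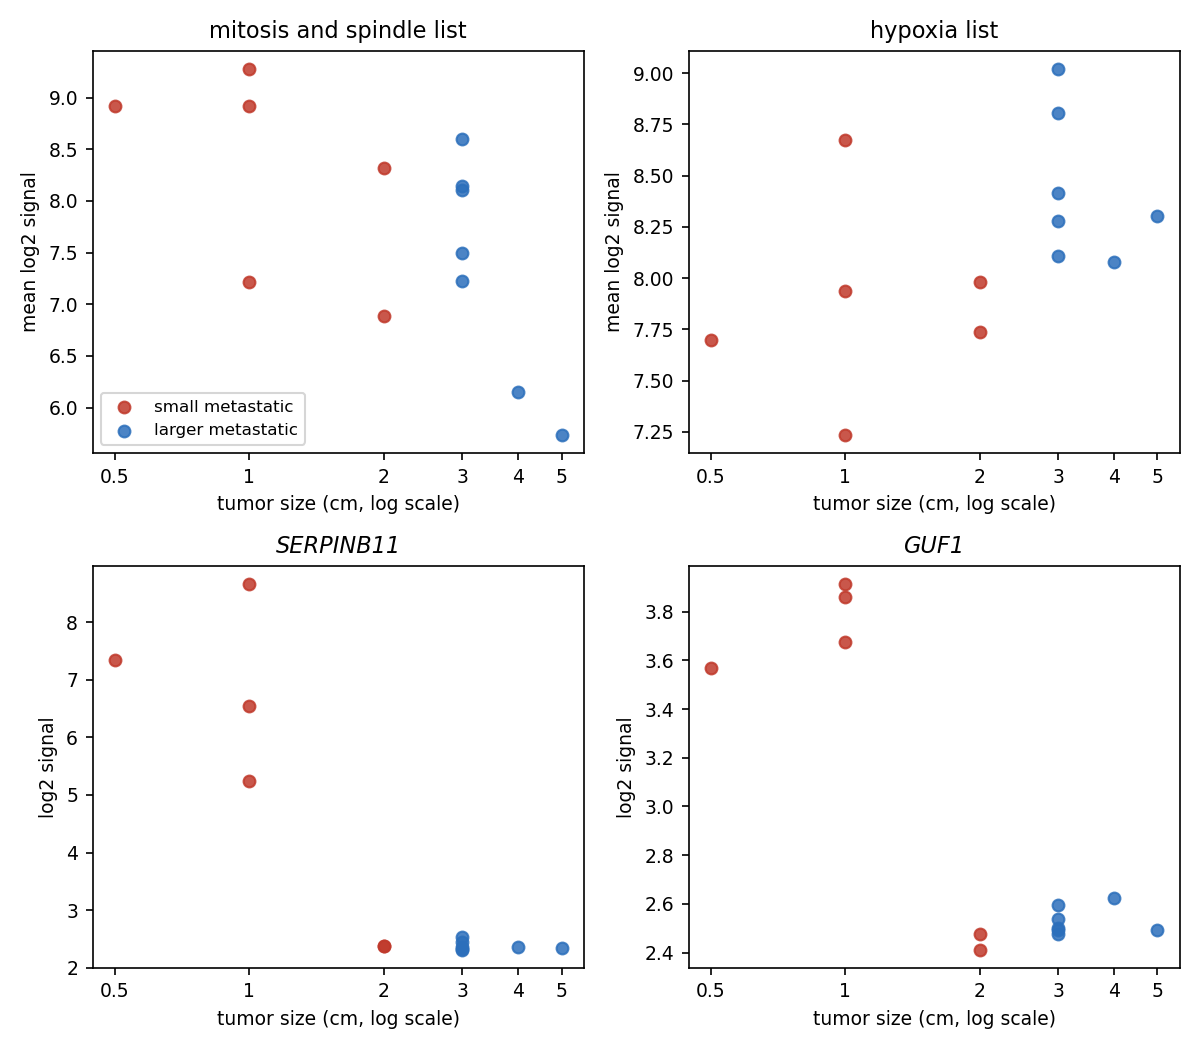
Mean log2 signal of the mitosis and hypoxia lists and log2 signals of SERPINB11 and GUF1 (vertical axes) against tumor size in cm on a log scale (horizontal axis), 1 point per metastatic tumor. The 4 tumors of 1 cm or less stand apart for SERPINB11 and GUF1, whereas the lists overlap between the groups and the tumors of 4 and 5 cm have the lowest mitosis levels.

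Fitted as a continuous measure, size again gave 0 genes at an adjusted p of 0.05, but more of them at an unadjusted one. Over 13 tumors 836 genes (5.53%) were higher and 399 (2.64%) lower towards smaller size at an unadjusted p under 0.05, and the smallest adjusted p in limma was 0.260. Without the tumor of 0.5 cm there were 494 and 319. *PTGS2* differed by -1.98 per halving of the size (95% interval -2.87 to -1.09; limma, adjusted p = 0.260) and *DSCC1* by 0.92 (0.54 to 1.31), while *BCL2L1* differed by 0.35 (0.01 to 0.69; limma, adjusted p = 0.593). Chosen after seeing the values, *PRMT3*, an arginine methyltransferase that acts on a ribosomal protein, and *CTSD*, the lysosomal protease cathepsin D, were among the first in this fit. *PRMT3* differed by 0.50 per halving (0.32 to 0.69) and *CTSD* by -0.55 (-0.78 to -0.33), both with limma adjusted p = 0.260. In the division at 2 cm *CTSD* had -0.73, but -0.08 by its probe set of largest variance. *PRMT3* was at 11.06 in the tumor of 0.5 cm, between 9.98 and 10.44 at 1 cm and at 9.92 or less from 2 cm on.

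The size groups were also set against the 14 non-metastatic tumors in 1 fit over all 27. Both comparisons share these 14 tumors and therefore their values are given side by side only. Small metastatic tumors had 1349 genes higher (8.92%) and 577 lower (3.82%) than non-metastatic tumors at an adjusted p of 0.05, and larger metastatic tumors 204 higher (1.35%) and 95 lower (0.629%). The direct contrast of small and larger tumors in that fit called 0 genes, with 691 at an unadjusted p under 0.05, so these counts do not show that the groups differ. With single tumors left out it called 1 gene, *GUF1*, without the Dachshund's (limma, adjusted p = 0.0269) or the Mixed Breed's tumor (adjusted p = 0.0115), the tumors of 2 cm, and 0 genes otherwise. The first count was 1351 to 2055 with single metastatic tumors left out, the lowest without the terrier's tumor of 0.5 cm, against 1926 with all. The second was 101 to 345 against 299, and fell under 200 without the Bobtail's (101), the Rottweiler's (112) or the Spitz-Mix's tumor (175). All small tumors were at or below the smallest non-metastatic one in size, so for this group size and node status cannot be told apart. The sizes of larger metastatic and non-metastatic tumors overlapped. Sample names ended in T in all 6 small tumors, 5 of 7 larger ones and 0 of the 14 non-metastatic ones. In small tumors the name ending therefore cannot be told apart from node status either, and in larger tumors only in part. Without the larger tumors whose names do not end in T, the first count was 1832 and the second 226. What the ending stands for is not given in the labels.

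Of the lists, mitosis held the most calls between small and non-metastatic tumors. In small tumors 34 of 40 mitosis genes were higher than in non-metastatic tumors, with a median difference of 2.63, and in larger tumors 4 of 40, with a median of 1.73. Growth factor receptors held the most calls between larger and non-metastatic tumors, with 5 of 30 lower, and 7 lower and 1 higher in small tumors. DNA replication genes were higher in 26 and 4 of 39, with medians of 1.24 and 0.95. *AURKA* was higher by 2.79 in small tumors (limma, adjusted p = 0.00293) and had a difference of 1.51 in larger tumors (adjusted p = 0.114). Of the mitochondrial ribosome 21 of 43 genes passed in small and 1 in larger tumors, and of the proteasome 12 and 2 of 27. For comparison, of all genes 8.92% were higher and 3.82% lower in small tumors, and 1.35% higher and 0.629% lower in larger tumors.

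Some genes of smallest p between the sizes are given here against the non-metastatic tumors. They were chosen by the contrast of small and larger tumors. A gap between the 2 values of a gene follows from that choice and is no further evidence of a size difference. *BCL2L1* was higher than in non-metastatic tumors by 1.10 in small tumors (limma, adjusted p = 0.00431) and by 0.16 in larger tumors (adjusted p = 0.708). *NFKBIZ* was lower by 2.16 in small tumors (adjusted p = 0.00613), with -0.20 in larger tumors (adjusted p = 0.836). *PTGS2* had a difference of -0.99 in small tumors (adjusted p = 0.472) and of 2.62 in larger tumors (adjusted p = 0.0851). *ADM* had 0.29 in small tumors (adjusted p = 0.769) and 1.59 in larger tumors (adjusted p = 0.104). *NUDCD1* was higher by 1.86 in small tumors (adjusted p = 0.000241) and had 0.78 in larger ones (adjusted p = 0.0910). *HEATR5A* had -0.35 in small tumors and 0.38 in larger tumors (limma, adjusted p = 0.170 and 0.175).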

How the data were processed

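RNA of 27 canine simple mammary carcinomas was measured by the authors on Affymetrix arrays, 1 per tumor. The deposited values are log2 signals made by the authors in Partek with the GCRMA workflow (RMA background correction, quantile normalization, median polish). The genome build of the array is not given in the sources used here. The table has 43035 probe sets, 175 of them controls, which were dropped. The remaining 42860 were tested: 29254 have 1 gene symbol, 439 several and 13167 none. The probe set with the highest mean signal was taken for each of 15115 genes. Sizes and groups came from the sample labels. Groups were compared in limma 3.58.1 (R 4.3.3) with empirical Bayes moderation and Benjamini-Hochberg adjustment over all genes, and array and dog properties with exact tests. The code was tested on simulated data. The members and gene lists were chosen with earlier results of these data known. Named were the 12 genes of smallest p in each direction (passing over symbols of unknown loci), per list up to 4 in the majority direction and 2 in the other, the quantitative PCR genes and the hormone receptors. Lists are described by counts and medians. P-values measure the spread between single dogs, and precision is limited by how many arrays there are. Alternatives covered the test, scaling, probe set per gene, size coding, covariates and single tumors. Sequences were not analysed here.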

Additional observations from a re-analysis of the deposited data

Results flagged for a closer look

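Of 296 groups of values that were examined, 24 had a single tumor far from the others of its group by Dixon's criterion, where chance alone gives about 1 in 20. In larger metastatic tumors the Pudel's stood apart for *FBXL14* at 3.85 (next 4.41), for *IFIT2* at 2.36 (next 3.33) and for *PPP3R1* at 9.94 (next 8.41). The American Pittbull's stood apart for *KBTBD7* at 5.68 (next 5.15) and for *VEGFD* at 5.99 (next 4.22), the Bobtail's for *P4HA1* at 13.27 (next 12.35) and the Spitz-Mix's for *ZBTB2* at 6.24 (next 5.51). The Beagle's was highest for *LTO1* at 4.02 (next 3.40), for *ESR1* at 3.40 (next 2.28) and for the mean level of the red blood cell list at 3.30 (next 2.57). The Rottweiler's was highest for the T and NK cell list at 7.06 (next 4.76) and the antigen presentation list at 11.66 (next 10.35). In small metastatic tumors the Golden Retriever's was low for *PGR* at 2.43 (next 6.06) and high for the red blood cell list at 2.94 (next 2.48), and the French Bulldog's was highest for the macrophage and dendritic cell list at 9.88 (next 8.82). Among further genes named in the text, small tumors had the Golden Retriever's high for *ACAN* at 7.45 (next 2.97), the 0.5 cm terrier's high for *GABRA2* at 2.46 (next 2.27), and the French Bulldog's high for *CA12* at 4.67 (next 2.33) and low for *EPCAM* at 13.38 (next 13.98). Among larger tumors the Spitz-Mix's was high for *ALDH8A1* at 5.49 (next 2.27), *CA12* at 3.45 (next 2.31) and *LAPTM4B* at 7.35 (next 4.52), the Bobtail's for *CRIM1* at 6.80 (next 5.46) and the Rottweiler's for *UBE2C* at 2.66 (next 2.53).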

How the results depend on the processing

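The count of called genes between small and larger metastatic tumors was 0 in both directions under every alternative run except 1 cm or less against 3 cm or more, which called 2 genes higher, and in the fit of the 13 tumors it was 0 with each single tumor left out. In the fit of all 27 tumors leaving out the Dachshund's or the Mixed Breed's tumor called 1 gene, *GUF1*. At an unadjusted p under 0.01 there were 38 genes higher and 37 lower. Their sum was 125 with array weights, 166 with all 27 tumors in 3 groups, 296 with log2 size as a continuous measure, 173 for 1 cm or less against 3 cm or more, and 124 with the GAPDH difference as a covariate. It was 44 among genes above the median level, 44 with a covariate for names ending in T, 41 in the 11 tumors whose names end in T, and 49 without both West Highland White Terriers. With single tumors left out it ranged from 46 without the Pudel's to 155 without the Spitz-Mix's. Chosen after seeing the data, log2 size without the 0.5 cm tumor gave 161, and centring on the housekeeping list did not call a gene either. Of 99 genes followed, *KHDRBS1* was the only one at an unadjusted p under 0.05 to change sign, to -0.49, with the probe set of largest variance. Genes above that p that changed sign under some setting were *BMP6* (up to 0.07), *CA12* (down to -0.17), *ESR1* (up to 0.03), *HEPACAM2* (up to 0.22), *PGR* (up to 0.65), *TGFBR3* (down to -0.44) and *UBE2C* (up to 0.14). The causes were not tested. No paired analysis was possible because the labels give no replicate numbers that the groups share. Dim genes near the low end of the scale, such as *GUF1*, are limited by signal over background.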

Other observations

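Gene positions, taken from the RefSeq assembly UU_Cfam_GSD_1.0 by Entrez identifier and looked at after the values were seen, were uneven among the genes of smallest p. On chromosome 13, 25 of 276 genes were higher and 1 lower in small tumors at an unadjusted p under 0.05, which is 9.42% of its genes against 3.19% of all. The higher ones include *NUDCD1*, *SLC25A32*, *GUF1*, *DSCC1*, *DCK* and *MRPL13*, all given above, which therefore share a chromosome. Also among them are *MED30*, a subunit of the Mediator complex, with a log2 difference of 1.16, and *LAPTM4B*, a lysosomal membrane protein, with 2.92. The lower one was *GABRA2* at -2.20. The 138 brighter genes of this chromosome had a median difference of 0.43, and 117 of them were higher. Relative to all tumors, the median level of these genes was between -0.13 and 0.83 in small tumors and between -0.53 and 0.34 in larger tumors, so the groups overlapped.

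On chromosome 24, 23 of 391 genes were higher and 1 lower, *SULF2*, or 6.14%. *BCL2L1* is on this chromosome. The median difference of its 175 brighter genes was 0.34, and their level ranged from -0.34 to 0.67 in small tumors and from -0.46 to 0.20 in larger tumors. In the other direction chromosome 32 had 1 gene higher and 10 lower of 149, or 7.38%, and a median of -0.22 over 86 brighter genes. These chromosomes were picked as ranks 1, 2 and 39 of 39 by the median difference of their brighter genes. Chromosome 33, not picked, had 2 genes higher and 8 lower of 164, or 6.10%, and a median of -0.20 over 94 brighter genes. DNA copy number was not measured, and neighbouring genes are not independent.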
